A study of Mus musculus with 6 samples.

Results

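The Cd209 genes encode C-type lectins, membrane receptors that bind mannose- and fucose-rich glycans on microbes and host proteins. Among the mouse genes, Cd209a is the one named DC-SIGN, Cd209b encodes SIGN-R1, Cd209d SIGN-R3 and Cd209e SIGN-R4. SIGN-R1 is known on macrophages of the splenic marginal zone and the lymph node medulla, where it takes up bacterial polysaccharides and binds the complement protein C1q, and DC-SIGN is known on dendritic cells derived from monocytes. The genes described here were Cd209a, Cd209b, Cd209d, Cd209e, Cd209f and Cd209g. They are 6 of the 32287 features of the gene matrix and were chosen by name. Their symbols are 6 of the 7 that start with Cd209, the other being Cd209c, and all 6 had at least 1 molecule counted in the kept cells.

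The cells came from inguinal lymph nodes of Cd169Cre/+.Tdtomato fl/fl (CD169Tom) mice, in which every cell that has switched on Siglec1, and its progeny, carries the red fluorescent protein. All 4 mice carried both alleles, were on a C57BL/6J background and were over 6 weeks old. The sex of each was not stated. Of these, 2 mice were unimmunized and 2 had been immunized with hen egg lysozyme, and nodes were taken on day 9. The paper's methods give this antigen coupled to an ovalbumin peptide, under the skin in Sigma Adjuvant System, for mice that had received antigen-specific B and T cells. Whether the sequenced mice had received such cells was not stated. The cells were stained with 1 hashtag antibody per mouse and 6 other barcoded antibodies, and Tomato-positive cells with high CD11b were sorted, pooled and split over 2 droplet captures. The reporter marks a lineage and the sort keeps CD11b-high cells, so subsets low in CD11b or never positive for Siglec1 were not sampled, although B, T and NK cell-like clusters were present among the sorted cells. Counts are unique molecular identifiers (UMIs), 1 per captured RNA molecule, and levels are given as CPM, the counts of the summed cells scaled to a common UMI total.

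Of 18662 barcodes, 12139 were kept and assigned to a mouse. Unimmunized mouse 1 gave 2828 cells with a median of 5877 UMIs, and unimmunized mouse 2 gave 537 with 6280. Immunized mouse 1 gave 4052 cells with 9674 UMIs and immunized mouse 2 gave 4722 with 12727.5, so depth was higher in both immunized mice. Another 1242 barcodes, whose letters were found in both captures, were not used because their antibody counts could not be assigned. Cells were clustered without the Cd209 genes, and a cluster was named only from marker genes that include none of them; 14 of 25 clusters were named and 11 are called by their leading genes.

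The Cd209 genes lie together on mouse chromosome 8. In the GRCm38 build, Cd209a spans 3743397 to 3748984, Cd209e 3847965 to 3854309, Cd209d 3871824 to 3878555 and Cd209b 3917655 to 3926844, all on the minus strand. Cd209f spans 4102787 to 4105835 on the minus strand, and Cd209g spans 4134098 to 4137707 on the plus strand. Transcripts of Cd209a, Cd209b, Cd209c, Cd209d and Cd209e shared no run of 30 bases with another member, whereas those of Cd209f and Cd209g shared 499 runs of 90 bases, which is 21.5% of the runs in Cd209f and 12.2% of those in Cd209g. Reads from the shared stretch cannot be told apart, so the counts of Cd209f and Cd209g are uncertain. The 2 genes are also alike around their start sites. Their RefSeq promoter windows, which lie partly (Cd209f) or wholly (Cd209g) inside the annotated gene spans, were 80.9% identical. The parts of both windows that lie before the first annotated untranslated or coding base (74.6% identical; that of Cd209g falls inside the annotated gene span) are printed to show this, 5′ to 3′ on the coding strand, with the longest identical run of 83 bases in capitals (GRCm38; chr8:4105836-4106014 minus and chr8:4134486-4134651 plus).
Cd209f: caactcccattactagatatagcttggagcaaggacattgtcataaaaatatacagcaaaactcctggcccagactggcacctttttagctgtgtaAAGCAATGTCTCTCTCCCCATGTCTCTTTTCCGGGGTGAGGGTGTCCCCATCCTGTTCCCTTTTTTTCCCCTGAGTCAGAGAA
Cd209g: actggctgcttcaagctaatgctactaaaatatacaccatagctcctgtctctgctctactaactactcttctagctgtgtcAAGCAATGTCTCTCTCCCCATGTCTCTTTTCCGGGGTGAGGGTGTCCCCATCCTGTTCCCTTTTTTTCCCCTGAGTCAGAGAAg

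Cd209b and Cd209d, the members that had the most counts in medullary macrophages, were less alike, at 56.1% identity over the promoter window, and the other pairs ranged from 41.7% to 54.8%. The same parts of their windows, at 54.6% identity (GRCm38; chr8:3926845-3927091 minus and chr8:3878556-3878749 minus) are shown with identical runs of at least 8 bases in capitals, the longest being 12 bases.
Cd209b: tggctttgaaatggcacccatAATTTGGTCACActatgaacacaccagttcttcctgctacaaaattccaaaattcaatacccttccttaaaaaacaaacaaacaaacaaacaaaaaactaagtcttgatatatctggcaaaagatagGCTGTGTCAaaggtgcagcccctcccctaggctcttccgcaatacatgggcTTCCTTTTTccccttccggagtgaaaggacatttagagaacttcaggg
Cd209d: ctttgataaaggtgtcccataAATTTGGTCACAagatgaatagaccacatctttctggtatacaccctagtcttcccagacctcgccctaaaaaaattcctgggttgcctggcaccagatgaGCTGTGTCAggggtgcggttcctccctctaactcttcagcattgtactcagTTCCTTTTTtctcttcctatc
The core of the PU.1 motif, GAGGAA, searched on both strands, was found in the window of Cd209d alone among the members and in 28.3% of 32851 promoter windows of that length. The letters CAGGTG (an E box, in 20.2% of all windows) and a pair of GAAA runs set 2 bases apart (an interferon response core, in 3.44%) were not found in the window of any member.

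The members differed in their distribution over the cell classes, apart from Cd209f and Cd209g, as the plot of levels by class shows. Cd209b had the most counts, 4443 UMIs, of which 74.9% lay in a cluster called MSM-like after the markers of medullary sinus macrophages. Cd209a had 2376 UMIs, with 57.3% in cDC2-like cells, a class carrying markers of conventional type 2 dendritic cells, and none in MSM-like cells. Cd209d had 2048 UMIs, with 53.3% in a small unnamed cluster led by Lag3 and Gm14161, 27.1% in MSM-like cells and 5.22% in cDC2-like cells. The 186 UMIs of Cd209e lay mostly (72.0%) in the Lag3/Gm14161 cluster, with 13.4% in MSM-like cells. Cd209f (97 UMIs) and Cd209g (33 UMIs) were concentrated in MSM-like cells, with 62.9% and 54.5% of their counts, and neither had a count in cDC2-like cells or the Lag3/Gm14161 cluster. Cd209c had 60 UMIs in 45 cells.

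**Figure D1:**
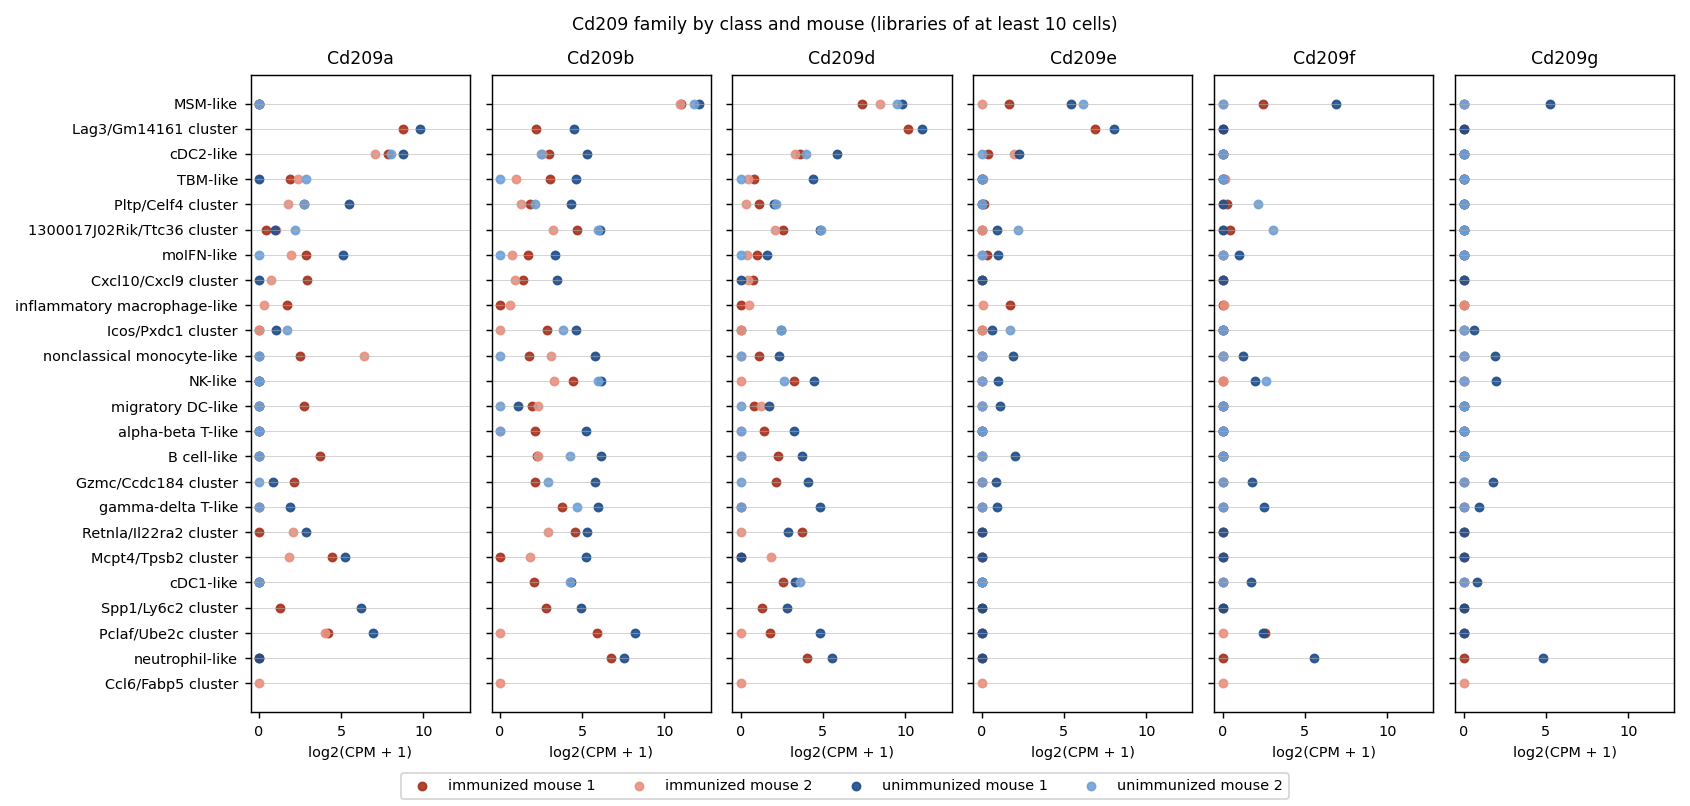
Level of each Cd209 gene, as log2(CPM + 1), in every class (rows), with 1 point per mouse and class of at least 10 cells. Cd209b is highest in MSM-like cells, Cd209a in the Lag3/Gm14161 cluster and cDC2-like cells, and Cd209d in the Lag3/Gm14161 cluster and MSM-like cells.

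The MSM-like cluster held 453 cells, of which the unimmunized mice gave 265 and 23 and the immunized mice 150 and 15. Its leading genes were Ccl8, Marco, Cox4i2, Folr2, Bpifb3, Bpifb2, Igf1, Cbr2, Timd4 and Cd5l. Marco is a scavenger receptor, Timd4 a phosphatidylserine receptor and Cd5l a secreted scavenger protein of tissue macrophages. Averaged over the 9 MSM markers, the log2 ratio to the other clusters was 2.60, and a share of 0.556 of them reached 1. Markers of tingible body macrophages came second at 1.74, so the name rests on part of its markers and is not certain. Siglec1, the gene behind the reporter, was itself at 30.4, 0, 26.3 and 0 CPM in these cells in unimmunized mice 1 and 2 and immunized mice 1 and 2, the order used from here on. The cells were shallow, with a median of 1903 UMIs, and the immunized mice were the deeper ones (1599, 1526, 2720.5 and 2182 UMIs).

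Cd209b, the SIGN-R1 gene, was counted in MSM-like cells at 4343, 3508, 2076 and 1975 CPM, from 2146, 151, 946 and 86 UMIs. Both unimmunized mice stood above both immunized mice. With 2 mice against 2, a full separation cannot go below p = 0.333 in an exact two-sided permutation test. The share of all genes that separate in this way is not given, here or below. No change is concluded from a separation alone. In the class order Cd209b averaged 2976 ± 1149 CPM (SD, n = 4) in MSM-like cells, and the next class, neutrophil-like cells, had 144 ± 54.7 CPM (n = 2). Few cells gave the counts of the neutrophil-like class. Its top 3 cells held 28 of 36 UMIs, and 1 cell held all 14 of immunized mouse 1. The classes below it, a dividing cluster led by Pclaf and Ube2c (120 ± 159 CPM) and a cluster led by 1300017J02Rik and Ttc36 (40.8 ± 28.6), did not differ from their neighbours beyond their spread. Tested against the mean of the other classes (edgeR quasi-likelihood, Benjamini-Hochberg adjusted over 11302 genes), Cd209b was higher in MSM-like cells by 7.89 on the log2 scale (SE 0.17, adjusted p = 1.0e-43). Here and below that mean was taken over log levels, so classes near 0 lowered it. A class could thus be called higher while other classes were above it in CPM. The Cd209 genes took no part in the clustering but genes that vary with them did, so p-values between classes are too small and describe the order of the levels.

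Cd209d, the SIGN-R3 gene, followed in the same cells at 880, 720, 162 and 345 CPM (435, 31, 74 and 15 UMIs), and again both unimmunized mice were above both immunized ones. Its level in MSM-like cells was above the mean of the other classes by 6.56 on the log2 scale (SE 0.26, adjusted p = 9.5e-30). Cd209e (log2 difference 5.01, adjusted p = 0.0040) and Cd209f (6.19, adjusted p = 1.9e-04) were also called higher there by edgeR, on far fewer counts. Of the 61 Cd209f UMIs there, 59 came from unimmunized mouse 1, so the Cd209f call rests mainly on 1 mouse. Cd209f also passed the filter on low counts through that mouse alone, where it was high in these cells. Its calls between classes are therefore descriptions. Thus 4 of the 6 members were called higher in MSM-like cells by edgeR, where 14.8% of all genes tested were called higher, and DESeq2 called 3. Without immunized mouse 1 the calls of Cd209e (2.84) and Cd209f (3.36) were lost, both at an adjusted p of 1.0. Cd209g was counted in MSM-like cells of unimmunized mouse 1 alone, with 18 UMIs. Cd209a had 0 UMIs in 453 MSM-like cells, which allows a share of up to 0.662% of cells with a UMI.

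The same 4 members were called higher in MSM-like than in TBM-like cells, the cluster with markers of tingible body macrophages such as the C1q genes. The limit on Cd209f given above holds here too. The log2 differences were 8.66 for Cd209b, 7.03 for Cd209d, 6.30 for Cd209e and 7.07 for Cd209f, and all 4 passed the threshold, beside 9.79% of all genes called higher by edgeR. DESeq2 called 3 members and lost Cd209f (adjusted p = 0.385). The calls of Cd209e and Cd209f were both lost without immunized mouse 1 (adjusted p = 1.00 for each), and that of Cd209e also without unimmunized mouse 1 (0.0838). Over the alternatives Cd209e was called in 16 of 20 and Cd209f in 14 of 18. Leaving out each mouse in turn gave only 3 values of Cd209f. Unimmunized mouse 1 held 59 of its 61 UMIs in MSM-like cells, so the Cd209f calls were not replicated across mice. TBM-like cells carried Cd209b at 23.7, 0, 7.22 and 0.949 CPM and Cd209d at 19.7, 0, 0.760 and 0.362 CPM. The MSM-like cells themselves carried many TBM marker transcripts (summed level 5628, 6227, 5403 and 4709 CPM), beside a summed MSM marker level of 4612, 3346, 4411 and 5168 CPM.

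In single MSM-like cells, 194 held UMIs of both Cd209b and Cd209d, 199 of Cd209b alone, 13 of Cd209d alone and 47 of neither. All 40 cells with Cd209f also held Cd209b, and all 21 with Cd209e also held Cd209d. These counts depend on the depth of each cell.

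**Figure D2:**
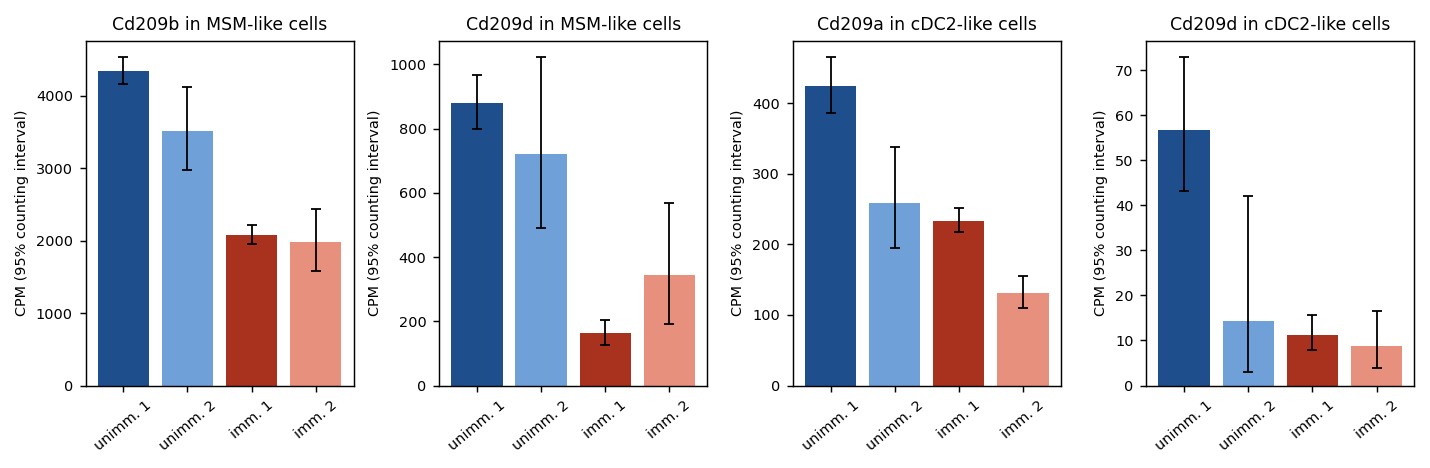
Level in CPM of Cd209b and Cd209d in MSM-like cells and of Cd209a and Cd209d in cDC2-like cells, 1 bar per mouse from 0, with 95% Poisson intervals that cover counting error only. In each panel both unimmunized bars are above both immunized bars, while the interval of unimmunized mouse 2 overlaps that of immunized mouse 2 for Cd209d in MSM-like cells, and in cDC2-like cells it overlaps that of immunized mouse 1 for both genes and those of both immunized mice for Cd209d. The share of all genes that separate in this way is not given, and no change is concluded from the separation.

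Immunization was then compared within each class that had at least 10 cells in all 4 mice. The edgeR fit shared its estimate of the spread over all classes. Its standard errors and p-values thus do not measure the spread between mice within 1 class. In MSM-like cells Cd209d was lower in the immunized mice by 2.06 on the log2 scale (log2 fold change -2.06, SE 0.32, adjusted p = 0.00012 by edgeR). It was the only member called, 1 of 6, where 0.133% of all genes were called and 0.0885% were called lower. The genes Bpifb2 (log2 fold change -3.58) and Bpifb3 (-2.66), which encode secreted lipid-binding proteins, and Cd209d had the 3 smallest adjusted p-values in this class. The median log2 fold change over all genes tested was -0.0796. The call was lost without unimmunized mouse 1 (log2 fold change -1.33, adjusted p = 0.548) and without immunized mouse 1 (-1.65, adjusted p = 0.104). It was also lost in DESeq2 with no independent filtering (-1.78, unadjusted p = 0.00426, adjusted p = 0.741), and with that filtering on DESeq2 gave no adjusted p.

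Cd209b had a log2 fold change of -0.94 (SE 0.35) with an adjusted p of 0.406 by edgeR, and so did not pass the threshold. By DESeq2 the log2 fold change of Cd209b was -0.949 (unadjusted p = 0.386). Its groups did not overlap, but the share of all genes that separated in this way is not given. With 2 mice against 2, no change is concluded from the separation. For the 3 scarcer members the counts were 24 UMIs of Cd209e in unimmunized against 1 in immunized MSM-like cells, a ratio of the levels of 22.3 (95% interval 3.64 to 917, counting error only), and 59 against 2 of Cd209f, a ratio of 27.4 (7.26 to 232). Cd209g had 18 against 0, at least 5.58-fold higher in the unimmunized cells with the immunized level set at 3 counts over the group. None of these 3 passed the test across genes by edgeR (adjusted p = 0.0978 for Cd209e, 0.0588 for Cd209f and 0.137 for Cd209g). By DESeq2 the unadjusted p was 0.162, 0.543 and 0.782 in the same order. Cd209f and Cd209g passed the filter on low counts through unimmunized mouse 1 alone. No other mouse gave a Cd209g UMI, and in no class of another mouse was Cd209f above 7.23 CPM. Their tests for a lower level after immunization therefore rest on that mouse being high, and their values are descriptions. Over the alternatives run Cd209f was called lower in 7 of 13 (adjusted p 0.0043 to 1.0) and Cd209e in 3 of 15 (0.0262 to 1.0), and the counts of Cd209f and Cd209g came from unimmunized mouse 1 in all but 2 UMIs.

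The MSM-like cells of the 2 conditions also differed in other measures that move with these levels. The share of UMIs that was mitochondrial was 3.89%, 3.05%, 1.33% and 2.36%, and the CD169 antibody signal, as a centred log ratio, averaged 0.71, 0.65, 0.17 and 0.08. Timd4 was at 1734, 929, 823 and 850 CPM and Cd5l at 64.8, 116, 467 and 230 CPM, while Marco was at 1702, 1464, 1986 and 2343 CPM. Markers of other cell types were also detected. The summed level of the 6 classical monocyte markers was 380, 302, 222 and 68.9 CPM and that of the 5 markers of plasmacytoid dendritic cells 312, 302, 191 and 91.9 CPM, and both immunized mice lay below both unimmunized ones in each. The same held for markers of interferon-activated monocytes, at 684, 558, 428 and 413 CPM. The markers of monocyte-derived dendritic cells, at 1344, 1301, 1800 and 1309 CPM, and the cDC1 markers, at 534, 604, 430 and 528 CPM, were among the highest of these sums beside the TBM markers. Summed B cell markers were at 134, 23.2, 30.7 and 91.9 CPM and endothelial markers at 74.9, 69.7, 15.4 and 138 CPM. The part of these measures in the result was not tested.

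Splitting MSM-like cells at 2000 UMIs gave 244 shallow and 209 deeper cells. In the shallow cells Cd209b was at 4521, 4067, 3855 and 3879 CPM, and in the deeper cells at 4132, 3178, 1795 and 1441 CPM, so the gap between conditions in Cd209b lay mainly in the deeper cells. Cd209d was at 1031, 1564, 161 and 629 CPM in the shallow and 702, 222, 163 and 265 CPM in the deeper cells, where unimmunized mouse 2 lay below immunized mouse 2. The second mouse of each condition gave few cells, 12 and 6 shallow and 11 and 9 deeper ones. After each cell was thinned to 1000 UMIs, the share of MSM-like cells with a Cd209d UMI was 45.5%, 34.8%, 12.7% and 6.67%, and that with a Cd209b UMI 91.4%, 87.0%, 60.7% and 80.0%. With 2 mice against 2 an exact two-sided permutation test cannot go below p = 0.333, which was the value for both (adjusted p = 0.583 over 7 such comparisons). Before thinning the shares were 60.4%, 39.1%, 23.3% and 20% for Cd209d and 96.6%, 95.7%, 68% and 86.7% for Cd209b, and 8 cells under 1000 UMIs, all of unimmunized mouse 1, were left out of the thinned shares. B cell-like cells, which should lack these genes, had thinned shares of 2.56%, 0%, 0.658% and 0% for Cd209d and 3.85%, 7.69%, 0% and 0% for Cd209b, at median depths of 3249, 3067, 7487 and 4404 UMIs.

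The balance of the 2 genes differed between classes and mice, as the plot of the Cd209d share shows. Cd209d made up 14.3% of the UMIs of both genes in MSM-like cells (95% exact binomial interval 13.2% to 15.4%), 61.5% in cDC2-like cells (53.8% to 68.8%) and 99.2% in the Lag3/Gm14161 cluster (98.5% to 99.6%). Within MSM-like cells the share was 16.9%, 17.0%, 7.25% and 14.9%, so immunized mouse 1 was low and immunized mouse 2 lay near the unimmunized mice. These intervals cover counting error only, since UMIs of 1 cell are not independent.

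**Figure D3:**
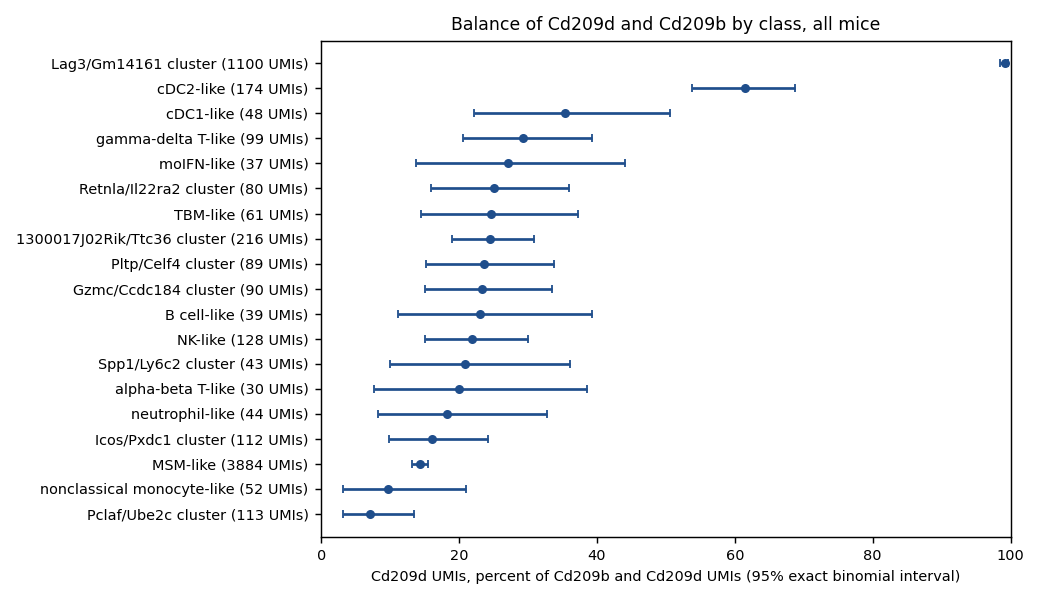
Cd209d as a percentage of the summed UMIs of Cd209b and Cd209d in each class with at least 30 such UMIs (points, pooled over mice), with 95% exact binomial intervals. The Lag3/Gm14161 cluster is at 99.2%, cDC2-like cells at 61.5% and MSM-like cells at 14.3%.

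Cd209b and Cd209d were also counted at low levels in classes that should lack them. Cd209b was at 71.0, 18.2, 3.85 and 4.00 CPM in B cell-like cells and at 69.3, 62.7, 21.2 and 8.71 CPM in NK-like cells, with both immunized mice below both unimmunized ones. In alpha-beta T-like cells it was at 37.4, 0, 3.41 and 0 CPM, and there the mice of the 2 conditions overlapped. Cd209d was at 20.5, 5.23, 8.49 and 0 CPM in NK-like cells. In NK-like and neutrophil-like cells Cd209b was called higher than in the mean of the other classes by edgeR (log2 difference 1.66, adjusted p = 0.011, and 3.78, adjusted p = 2.4e-05). There 30% and 8.22% of all genes were called higher. In mean CPM both classes were far below MSM-like cells, at 40.5 and 144 against 2976. In the 1300017J02Rik/Ttc36 cluster of 1171 cells, Cd209d was called lower after immunization (log2 fold change -2.40, SE 0.55, adjusted p = 0.0291), 1 of 6 members beside 0.31% of all genes called and 0.0796% called lower. Its level there was 27.4, 28.9, 4.92 and 3.21 CPM, from 29, 8, 13 and 3 UMIs, beside Cd209b at 68.0, 61.4, 24.99 and 8.55 CPM. Cd209b there lay close to its level in NK-like cells and above that in B cell-like cells in all mice but unimmunized mouse 1. The cluster carried no class name, but clustering by NMF put 1167 of its 1171 cells into the NMF class named MSM-like, together with 448 of the 453 MSM-like cells. The call was lost without unimmunized mouse 1 (adjusted p = 0.369), without unimmunized mouse 2 (0.103) and without immunized mouse 1 (0.063), and the part of free RNA in it was not tested.

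Cd209a, the DC-SIGN gene, was highest in the Lag3/Gm14161 cluster and in cDC2-like cells. It was at 425, 259, 234 and 131 CPM in cDC2-like cells, from 450, 54, 723 and 135 UMIs in 95, 19, 255 and 76 cells. The Lag3/Gm14161 cluster averaged 652 ± 310 CPM (SD, n = 2, 1 mouse of each condition), and its spread overlapped that of cDC2-like cells at 262 ± 122 CPM (n = 4). Within each of these 2 mice the cluster was higher, at 872 against 425 CPM in unimmunized mouse 1 and 433 against 234 CPM in immunized mouse 1. Next came the Pclaf/Ube2c cluster at 51.3 ± 60.6 CPM, where 1 cell held 27 of the 36 UMIs. Counts in other classes came from few cells. The top 3 cells held 39 of 40 UMIs in nonclassical monocyte-like cells, 73 of 74 in a cluster led by Spp1 and Ly6c2, 67 of 101 in TBM-like cells and 60 of 147 in the Pltp/Celf4 cluster. Against the mean of the other classes, Cd209a was higher in cDC2-like cells by 7.86 on the log2 scale (SE 0.35, adjusted p = 3.2e-24), and Cd209d (2.65, SE 0.36, adjusted p = 1.6e-08) and Cd209e (2.90, adjusted p = 0.0024, 8 UMIs) were called too. By edgeR that is 3 of 6 members beside 24% of all genes called higher, while DESeq2 called 2 and leaving out 1 mouse gave 2 or 3, with 2 without unimmunized mouse 1 and without immunized mouse 2. In mean CPM, cDC2-like cells were far below the Lag3/Gm14161 cluster and MSM-like cells for Cd209d (22.8 against 1605 and 527). The same held for Cd209e (1.75 against 187 and 28.6). Cd209a was also called higher in moIFN-like cells, monocyte-derived cells with interferon-induced genes (log2 difference 3.13, SE 0.82, adjusted p = 0.0024, with 23.1% of all genes called higher). It was at 34.3, 0, 6.38 and 2.92 CPM there, and 1 cell held 21 of the 89 UMIs. Its mean there, 10.9 CPM, was far below that of cDC2-like cells.

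The cDC2-like name rested on the mean log2 ratio of 8 markers to the other clusters, which was 1.59, with a share of 0.875 of them at 1 or more. Markers of monocyte-derived dendritic cells came second at 0.663. The 8 markers, among them Flt3, Zbtb46, Clec10a and Mgl2, were all detected in 3 of the 4 mice, and 7 of 8 in unimmunized mouse 2. The leading genes of the class by fold were Retnla, Ppp1r14a, Mmp12, Clec4b1, Scn3a, Bex6, Ffar2, H2-Oa, Fcrls and Sucnr1, which include none of those markers, and all 7 markers of monocyte-derived dendritic cells (moDC) were detected as well. The summed level of the moDC markers was 13094, 12950, 12109 and 11631 CPM in these cells, above that of the cDC2 markers at 904, 556, 758 and 544 CPM, and the moDC list includes H2-Ab1, a class II antigen presentation gene that dendritic cells of both types carry. The name is therefore uncertain between these 2 types, and no cluster was named moDC-like. Within the class Cd209a was uneven. Of the 445 cells, 194 held a Cd209a UMI and 49 held 10 or more. Flt3 encodes a receptor that marks dendritic cells of the conventional lineage. A Cd209a UMI was found in 122 of 240 cells with Flt3 (50.8%) and 72 of 205 without (35.1%), and at 1000 UMIs a cell the shares were 27.3% against 26.2% in unimmunized mouse 1 and 17.2% against 15.5% in immunized mouse 1. The other 2 mice had 3 and 2 cells with Flt3 at that depth.

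Against other dendritic classes the contrast was large. No Cd209a UMI was found in 133 cDC1-like cells, so that Cd209a was at least 181-fold higher in cDC2-like cells with the cDC1-like level set at 3 counts over the group. Cd209d was higher in cDC2-like than in cDC1-like cells by 1.62 on the log2 scale (adjusted p = 0.026), beside 7.53% of all genes called higher, and that call was lost without unimmunized mouse 1 (0.63, adjusted p = 0.817) and without immunized mouse 1 (1.08, adjusted p = 0.213). Against migratory DC-like cells, which are marked by the chemokine receptor gene Ccr7, the log2 difference was 8.77 for Cd209a, 3.72 for Cd209d and 2.65 for Cd209b (adjusted p = 0.026), where 15.2% of all genes were called higher. Without unimmunized mouse 1 the calls of Cd209d (adjusted p = 0.0584) and Cd209b (0.755) were lost, and without immunized mouse 1 that of Cd209b (0.0521). MSM-like cells were at 0, for a lower bound of 87.2-fold.

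In cDC2-like cells Cd209d was lower after immunization (log2 fold change -2.13, SE 0.42, adjusted p = 0.0061 by edgeR), 1 of 6 members beside 0.389% of all genes called and 0.168% called lower. Its level was 56.6, 14.4, 11.3 and 8.72 CPM from 60, 3, 35 and 9 UMIs, so unimmunized mouse 1 stood apart and the other three were close. In that mouse 1 cell held 24 of the 60 UMIs, and without the top cell of each mouse the levels were 34.3, 10.1, 9.10 and 5.93 CPM. Without unimmunized mouse 1 the log2 fold change was -0.34 (adjusted p = 0.994), with the mouse as a block -1.99 (limma-voom, adjusted p = 0.0875) and by DESeq2 -2.02 (adjusted p = 0.224). Cd209a had a log2 fold change of -0.93 (SE 0.43, adjusted p = 0.671) and Cd209b of -2.26 (SE 0.70, adjusted p = 0.200), and neither passed. The cDC2-like cells of the immunized mice carried more C1q transcripts (C1qa at 71.7, 19.2, 144 and 627 CPM, with immunized mouse 2 the highest), and the summed TBM markers in the class were 209, 43.1, 432 and 2085 CPM. Their part in the result was not tested.

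**Figure D4:**
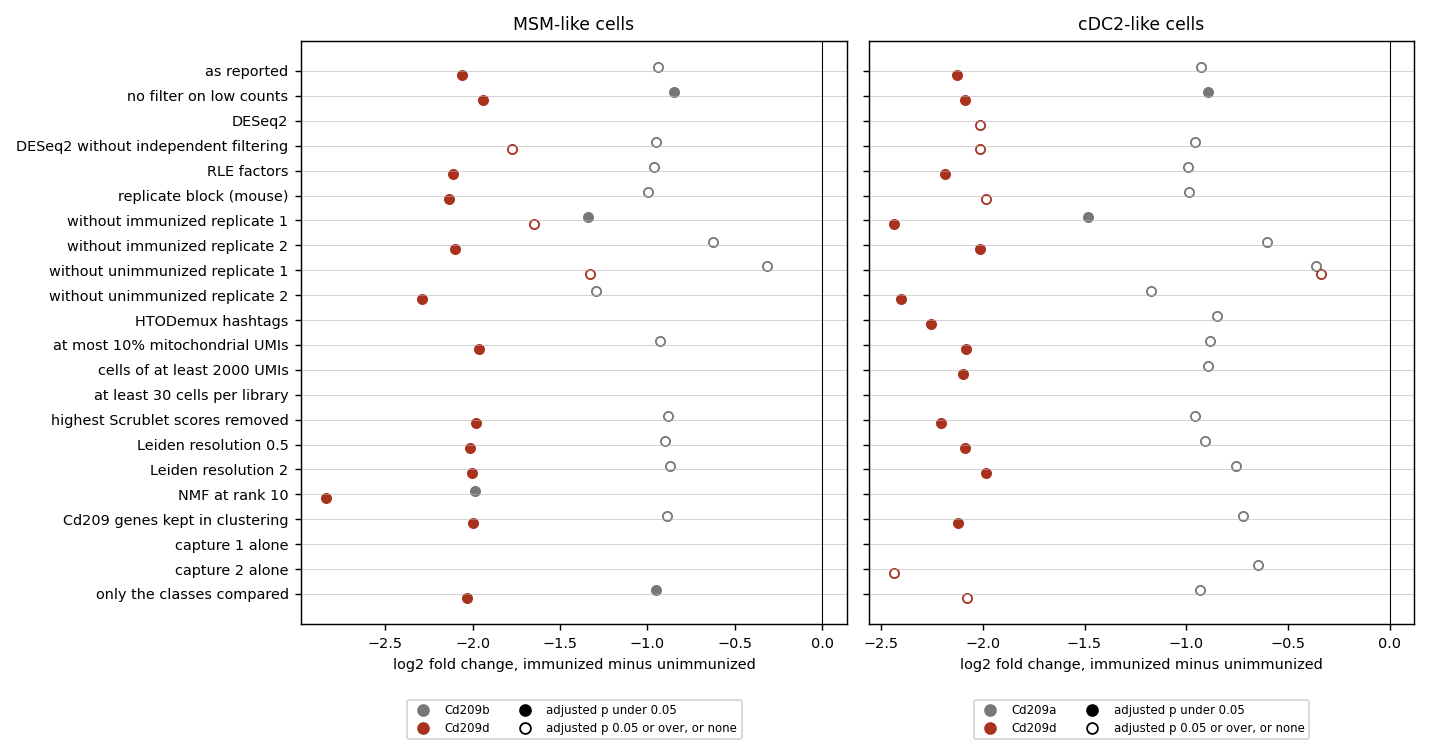
Log2 fold change of the Cd209 genes, immunized over unimmunized, in MSM-like and cDC2-like cells under each processing setting (rows); filled symbols passed an adjusted p of 0.05 and hollow symbols did not. Cd209d lies below 0 under every setting shown, and its symbol is hollow in both classes without unimmunized mouse 1.

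In the Pltp/Celf4 cluster of 1709 cells Cd209a was called lower after immunization (log2 fold change -2.75, SE 0.64, adjusted p = 0.0393), 1 of 6 members beside 0.265% of all genes called and 0.168% called lower. The levels were 43.8, 5.59, 5.60 and 2.47 CPM from 70, 5, 53 and 19 UMIs, and the top cell of each mouse held 23, 5, 21 and 16 of them. Unimmunized mouse 1 was high and the other three were close. Without unimmunized mouse 1 the log2 fold change was -0.32 (adjusted p = 1.0), without unimmunized mouse 2 it was -3.35 (adjusted p = 0.126), and with the mouse as a block -2.39 (limma-voom, adjusted p = 0.226). In all, a member was called for immunization in 4 of 12 classes, each time 1 member and each time lower, and none was called higher. In the other 8 classes edgeR called no member, in 48 tests of which 10 had an unadjusted p under 0.05, 1 of them higher (DESeq2 was not run there). Of all 11302 genes, between 547 (alpha-beta T-like) and 968 (TBM-like) had an unadjusted p under 0.05 in each of these classes. The share of all genes called was 0.46% in TBM-like, 0.319% in migratory DC-like, 0.177% in B cell-like, 0.168% in moIFN-like, 0.0796% in alpha-beta T-like, 0.0619% in nonclassical monocyte-like and 0.00885% in NK-like cells and in a cluster led by Icos and Pxdc1. In TBM-like cells Cd209d had a log2 fold change of -4.55 (adjusted p = 0.0686), from 5, 0, 2 and 8 UMIs. The counts are few, and those of the unimmunized mice all came from unimmunized mouse 1, so the size of this fold is uncertain. The immunization effect on Cd209d in MSM-like minus that in TBM-like cells was 2.49 on the log2 scale (SE 1.07), with an unadjusted p of 0.0234 and an adjusted p of 0.632 by edgeR. By edgeR 0 of the 6 members passed this test of the difference, beside 0.0619% of all genes called, and DESeq2 called 0. In edgeR 1 member had an unadjusted p under 0.05, beside 744 of all genes. Without unimmunized mouse 1 the sign turned (-4.13).

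The Lag3/Gm14161 cluster held 46 cells, 27, 2, 16 and 1 by mouse, and was chosen for description after its counts were seen, so no test is given. Markers of plasmacytoid dendritic cells scored highest in it, at a mean log2 ratio of 1.71 to the other clusters. The cDC2 markers came second at 1.53. All 5 plasmacytoid markers were detected, and a share of 0.8 of them reached a log2 ratio of 1. Its leading genes were Lag3, Gm14161, Cyp7b1, Adam11, Chil5, Bcl11a, Cd8a, Ddr1, Cd200r1 and Tcf4. None of the listed plasmacytoid markers was among these, and the cluster was left unnamed. Cd209d was at 2082 CPM in unimmunized mouse 1 and 1128 CPM in immunized mouse 1, Cd209a at 872 and 433 CPM, and Cd209e at 257 and 118 CPM. Of the 46 cells, 38 held both Cd209a and Cd209d, and all 25 with Cd209e held both other genes. Siglech and Ccr9, which are known in plasmacytoid dendritic cells, were at 153 and 60.9 and at 199 and 125 CPM, Flt3 at 331 and 229 CPM and Zbtb46 at 87.4 and 68.0 CPM. Marco was at 16.4 and 0 CPM. The antibody signals, as centred log ratios, were high for CD11c (1.98 and 2.30) and low for F4/80 (-1.31 and -1.64). The cluster thus held 3 of the lectin genes at once, and 2 mice gave it almost all of its cells.

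Over the 78 libraries of at least 10 cells (1 mouse and class each), the genes most like each member were found by Pearson correlation of log2(CPM + 1), over 12353 genes. The libraries share mice and classes, so the values are descriptions. For Cd209a they were Ctnnd2 (0.73), Hr (0.72), Smim5 (0.68), D6Ertd527e (0.67) and Kcne3 (0.66). For Cd209b they were Bpifb3 (0.86), Syndig1l (0.82), Bpifb2 (0.82), Timd4 (0.81) and Folr2 (0.80), and for Cd209d Cd300c (0.80), Siglech (0.79), Bpifb3 (0.71), Acot11 (0.69) and Folr2 (0.69). Cd209e was nearest to K230015D01Rik (0.70), Epb41l1 (0.69), Apod (0.68), Siglech (0.63) and Fcna (0.62). Among the members, Cd209f and Cd209g had the highest correlation, at 0.80, and part of their reads cannot be told apart. Cd209b and Cd209d correlated at 0.73, Cd209d and Cd209e at 0.75, and Cd209a and Cd209b at -0.065.

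Other lectin receptors of myeloid cells were read from a list of 27 genes, of which 21 were tested. Genes of this and the later lists could enter the clustering, so their counts between classes are descriptions. In MSM-like cells edgeR called 6 higher against the other classes, where 14.8% of all genes were called higher, and 2 lower (DESeq2 6 and 3), the higher ones being Clec1b (log2 difference 5.63), Mrc1 (4.37), Clec10a (2.35), Clec4n (2.10), Siglec1 (1.87) and Cd302 (1.77). Mrc1 is the mannose receptor and Siglec1 encodes CD169. In cDC2-like cells edgeR called 10 higher, where 24% of all genes were, and 0 lower (DESeq2 10 and 1), among them Clec4b1 (4.99), Mrc1 (4.72), Mgl2 (4.11) and Clec10a (3.87). Clec10a and Mgl2 encode lectins that bind galactose-type glycans. For immunization edgeR called 0 of the 21 in either class, and DESeq2 called 0 as well. In edgeR 1 had an unadjusted p under 0.05 in MSM-like and 6 in cDC2-like cells, beside 906 and 777 of all genes. The 10 tested genes next to the Cd209 genes on chromosome 8 gave 0 calls for immunization in either class by edgeR and by DESeq2, and 0 had an unadjusted p under 0.05 in edgeR.

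Known partners of the receptors, a list of 15 genes, gave 3 calls by edgeR for immunization in cDC2-like cells, all higher, beside 0.389% of all genes called. They were C1qa (log2 fold change 2.64, adjusted p = 0.039), C1qb (2.83, adjusted p = 0.017) and C1qc (3.28, adjusted p = 0.0075), which encode the chains of C1q. All 3 are also TBM markers, and the summed TBM markers in cDC2-like cells were highest in immunized mouse 2 (2085 CPM). The part of TBM-like cells or RNA in these calls was not tested. DESeq2 called 1 of the 15 (0 with no independent filtering). In MSM-like cells edgeR called 0 of the 15 (4 with an unadjusted p under 0.05, none of them higher) and DESeq2 1, lower (0 with no independent filtering). Of 13 transcription factors of macrophages and dendritic cells, edgeR called 6 higher in MSM-like cells against the other classes, including Spic (4.16) and Nr1h3 (2.84), and 0 lower (DESeq2 6 and 1), beside 14.8% of all genes called higher. In cDC2-like cells edgeR called 6 higher, including Zbtb46 (3.88), Irf4 (3.79) and Klf4 (2.87), and 2 lower, Maf and Irf8 (DESeq2 5 and 4), beside 24% of all genes called higher. None of the 13 was called for immunization in either class by edgeR (unadjusted p under 0.05 for 3 in MSM-like and 5 in cDC2-like cells), nor by DESeq2.

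The antibody counts gave a readout on the same cells. Only 2 mice had at least 10 cells on each side, so an exact sign-flip test cannot go below p = 0.5. MSM-like cells with a Cd209b UMI had a CD169 antibody signal 0.17 above those without on the centred log ratio scale (higher in 2 of 2 mice). The differences were -0.24 for CD11c (lower in both mice), -0.22 for F4/80 and -0.10 for Ly-6C (both higher in 1 of 2). cDC2-like cells with a Cd209a UMI differed from those without by -0.16 for CD11c, -0.093 for CD169, 0.086 for F4/80 and 0.040 for Ly-6C.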

How the data were processed

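Tomato-positive CD11b-high lymph node cells of 4 mice were profiled by CITE-seq in 2 droplet captures. Per the labels the authors used Cell Ranger 4.0.0 and the mm10 build, and the methods name CITE-seq-Count for the antibody and hashtag tables. The deposited matrices hold raw UMI counts per gene, antibody or hashtag, with no normalization. Gene positions and promoters come from GENCODE and RefSeq annotation of GRCm38.

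Barcodes over 25% mitochondrial UMIs (1425), barcodes without hashtag and antibody counts (1238) and 1242 barcodes shared by sequence between the captures were removed. A cell was given to a mouse where its top hashtag held at least 80% of hashtag counts and at least 10 counts. This left out cells split more evenly over hashtags, but cells with a weaker second hashtag and doublets within 1 mouse could remain. HTODemux, the other hashtag rule, kept 9902 cells, and 9091 cells were kept by both rules. Scrublet marked 0 and 1 cells in the captures and was taken as not having worked. Counts were log-normalised and clustered on 3000 variable genes without the Cd209 and mitochondrial genes (40 principal components, Leiden resolution 1). The rule that names clusters was set after the clusters were seen.

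UMIs were summed per mouse and class of at least 10 cells, giving 78 libraries in 24 classes. edgeR 4.0.16 (quasi-likelihood, TMM, filterByExpr) was fitted with 46 class-by-condition means, and p-values were adjusted over 11302 genes at 0.05. The fit had no term for the mouse, so libraries of the same mouse in different classes were treated as independent. Standard errors were taken as the fold change over the root of F. Fitted folds of members under 20 UMIs in a class were left out of the settings compared, a limit set after the values were seen. The members and gene lists were chosen with earlier results of these data known. Named genes are the members, the 5 genes most correlated with each member of at least 100 UMIs, called list genes with up to 5 by size of change, and the class markers. Lead genes of clusters and genes beside a result were added after their values were seen.

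Depth per mouse was 18943001, 3817845, 39020653 and 61983132 UMIs. On simulated counts for the MSM-like immunization comparison (9287 genes), 4-fold increases were called for 82% and 4-fold decreases for 46% of changed genes, 2-fold increases for 10% and 2-fold decreases for 2.04%. Alternatives covered hashtag rule, tool, filters, clustering, captures and leaving out each mouse. Statistics used R 4.3.3, limma 3.58.1, DESeq2 1.42.0, Seurat 5.3.0, Python 3.11.15 and scipy 1.17.1. Values of a transcription factor on the lists and of a promoter motif are not reported here.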

Additional observations from a re-analysis of the deposited data

Results flagged for a closer look

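UMIs of the Cd209 genes were also found in barcodes outside every comparison. The 3449 barcodes that passed the mitochondrial filter but could not be given to a single mouse held 822 UMIs of Cd209a, 2029 of Cd209b, 824 of Cd209d, 76 of Cd209e, 48 of Cd209f and 36 of Cd209g. These came to 13.1, 32.3, 13.1, 1.21, 0.763 and 0.572 CPM, above the 0.0477 CPM that a count of 0 would allow. No mouse could be assigned, so they are given as values only.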

How the results depend on the processing

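With 2 mice a condition and between 3817845 and 61983132 UMIs a mouse, mouse number and depth limited the immunization results. Cd209d kept a negative fold change in MSM-like cells under all 15 alternatives (-2.84 to -1.33, called in 12, adjusted p 8.4e-09 to 0.741) and in cDC2-like cells under all 18 (-2.44 to -0.34, called in 12, adjusted p 3.9e-06 to 0.994). Cd209b in MSM-like cells ranged from -1.99 to -0.32 and was called in 4 of 15 (adjusted p 0.0275 to 1.0). The class calls of Cd209b and Cd209d in MSM-like cells held under all 20 alternatives. That of Cd209a in cDC2-like cells held under all 19 that gave a value. Clustering by NMF named no cluster cDC2-like and so gave no value for that class. Of the cDC2-like cells, 214 fell into the NMF class named B cell-like, 76 into Celf4/Ip6k3, 68 into TBM-like and 60 into neutrophil-like. Each other NMF class held fewer of them. Values that moved are given for immunization in MSM-like, cDC2-like, 1300017J02Rik/Ttc36 and Pltp/Celf4 cells, against 15, 44, 35 and 30 genes and 1 member each as reported. Where a cause is not plain from the setting, it was not tested.

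With no filter on low counts 48, 128, 109 and 128 genes and 4, 3, 2 and 2 members were called. DESeq2 called 32 genes in MSM-like cells, 14 genes and 0 members in cDC2-like cells, and 4 and 0 in Pltp/Celf4 cells; with no independent filtering, an alternative chosen after seeing the data, it called 8, 5, 15 and 4 genes and 0 members in all 4. It called 1615 genes (1569 with no independent filtering) for cDC2-like cells against the others, where 2897 were reported. RLE factors gave 23 genes and 2 members in MSM-like cells and 57 genes in 1300017J02Rik/Ttc36 cells.

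With the mouse as a replicate block (limma-voom, correlation within a mouse 0.0553) cDC2-like cells had 9 genes and 0 members called and Pltp/Celf4 cells 0 members, while Cd209d in MSM-like cells stayed called (-2.13, adjusted p = 1.9e-05); the block changed no other member's call in an immunization comparison of these 4 classes.

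At most 10% mitochondrial UMIs gave 6 genes in MSM-like and 81 in 1300017J02Rik/Ttc36 cells. At least 30 cells a library gave 211 genes in 1300017J02Rik/Ttc36 cells and 11 genes and 0 members in Pltp/Celf4 cells. Removing the highest Scrublet scores gave 86 genes in 1300017J02Rik/Ttc36 cells, where HTODemux and the minimum of 2000 UMIs each gave 0 members. In MSM-like cells Leiden resolution 0.5 gave 4 genes, resolution 2 gave 2 members, Cd209 genes kept in the clustering gave 2 members, and NMF gave 153 genes and 4 members, with 6479 genes against the other classes (2715 reported). The NMF class of that name held 1783 cells, 1167 of the 1300017J02Rik/Ttc36 cluster and 448 of the MSM-like cells. Its values, also in the ranges above, are thus for a different set of cells. Capture 1 alone gave 0 members in 1300017J02Rik/Ttc36 cells, 11 genes and 2 members in Pltp/Celf4 cells and 1907 genes for cDC2-like cells against the others. Capture 2 alone gave 4 genes and 0 members in cDC2-like cells, 12 and 0 in 1300017J02Rik/Ttc36 cells, 5 and 0 in Pltp/Celf4 cells, and 1698 genes for cDC2-like cells against the others. Fits of only the classes compared gave 34 genes and 3 members in MSM-like, 3 and 0 in cDC2-like, 614 and 2 in 1300017J02Rik/Ttc36, and 0 members in Pltp/Celf4 cells.

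Leaving out 1 mouse at a time gave 0 to 47 genes and 0 to 2 members in MSM-like cells, 1 to 221 genes and 0 to 3 members in cDC2-like cells, 1 to 73 genes and 0 to 1 members in 1300017J02Rik/Ttc36 cells, and 1 to 144 genes and 0 to 2 members in Pltp/Celf4 cells. Against the other classes it gave 1063 to 3400 genes and 2 to 4 members for MSM-like and 1333 to 2541 genes for cDC2-like cells. The lowest counts came without unimmunized mouse 1 in MSM-like and cDC2-like cells. An arm of 1 mouse was assumed to vary like the other groups.

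Signs turned for Cd209b in cDC2-like cells against the mean of the others (0.36) in DESeq2 (-0.087), HTODemux (-0.30) and Leiden resolution 0.5 (-0.32), and against cDC1-like cells (0.71) in Leiden resolution 0.5 (-1.31) and without immunized mouse 1 (-0.68) or unimmunized mouse 1 (-0.61), with a range of -0.68 to 0.87 when 1 mouse was left out. Without unimmunized mouse 1 they turned for the immunization effect on Cd209b in cDC2-like cells (range -2.67 to 0.49 when 1 mouse was left out) and for that in MSM-like minus TBM-like cells of Cd209b (-5.18 to 2.43) and Cd209d (-4.13 to 3.08). The antibody differences with Cd209a turned as log2 of the count plus 1, for F4/80 (0.086 to -0.097) and Ly-6C (0.040 to -0.162).

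HTODemux, the minimum of 2000 UMIs or of 30 cells and single captures left under 10 MSM-like cells (or under the minimum) in a mouse and gave no value for immunization there. Of single members, 26 values gained and 56 lost a call.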

Other observations

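The 1242 barcodes whose sequence occurred in both captures held 409 UMIs of Cd209a, 518 of Cd209b, 595 of Cd209d, 62 of Cd209e, 19 of Cd209f and 2 of Cd209g. Their capture could not be matched to the antibody counts, and they went into no comparison.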
